A study of Mus musculus with 6 samples.

Results

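The genes described here encode core splicing factors and heterogeneous nuclear ribonucleoproteins (hnRNPs). They are the rows of the deposited expression tables whose symbol starts with Snrp, Sf3a, Sf3b, Prpf, Srsf or Hnrnp, 65 of 24346 listed genes. The prefixes hold 12 Snrp, 3 Sf3a, 6 Sf3b, 13 Prpf, 11 Srsf and 20 Hnrnp genes. Of the 65, 63 reached at least 1 FPKM (fragments per kilobase of transcript, scaled to library size, hence a level per transcript length) in at least 3 of the 6 libraries and were tested; Snrpn and Srsf12 did not.

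The libraries came from mouse spleen cells sorted on magnetic beads for CD11c, the integrin chain by which dendritic cells, which present antigen to T cells, are usually collected. There were 3 IL-33 libraries and 3 libraries from cells given phosphate-buffered saline (PBS), the vehicle. IL-33 is a cytokine of the IL-1 family that signals through the receptor ST2, and the title of the series concerns SEMA4A made by dendritic cells in response to it. Mouse strain, genotype, age, dose, time, and whether the cytokine was given to animals or to cells are not stated in the labels. No label ties the 3 replicates to separate mice or cultures, so the p-values reflect how far these libraries scatter, and that scatter may be technical.

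Introns are removed from pre-mRNA by the spliceosome, which is assembled from small nuclear ribonucleoproteins (snRNPs). U1 binds the start of the intron, U2 binds the branch point, and the tri-snRNP of U4, U6 and U5 then joins and is rearranged into the catalytic form. SR proteins, named for their serine- and arginine-rich tails, mostly help exons to be recognised, whereas hnRNPs coat the transcript and often make exons skipped. Many SR and hnRNP genes limit their own level through exons whose inclusion leads the mRNA to be degraded; the gene-level FPKM used here sums the isoforms and does not separate them.

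The 6 prefixes did not move together. With IL-33, 16 of the 63 tested genes rose, 22 fell and 25 did not pass the test (limma on log2(FPKM + 1), Benjamini-Hochberg adjusted p of at most 0.05 over 11518 genes). Over all tested genes 28.0% were higher and 25.5% were lower. Calls in either direction were made for 38 of the 63 members, against 53.6% of all genes. The median member changed by -0.03 on the log2(FPKM + 1) scale, IL-33 minus PBS, and the median gene by 0.01. The Snrp genes rose (10 of 11 tested, none fell), whereas 8 of 13 Prpf genes and 6 of 10 Srsf genes fell. No Sf3a gene passed the test with the values as deposited, the Sf3b genes split 2 and 2, and 13 of 20 Hnrnp genes did not pass. For the 25 members that did not pass, the 95% intervals of the change lay between -0.38 and 0.35. After each library was scaled to the same total FPKM, no member passed as higher and 44 of the 63 passed as lower. Over all tested genes 11.1% then passed as higher and 50.7% as lower, and the median gene changed by -0.29.

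**Figure D1:**
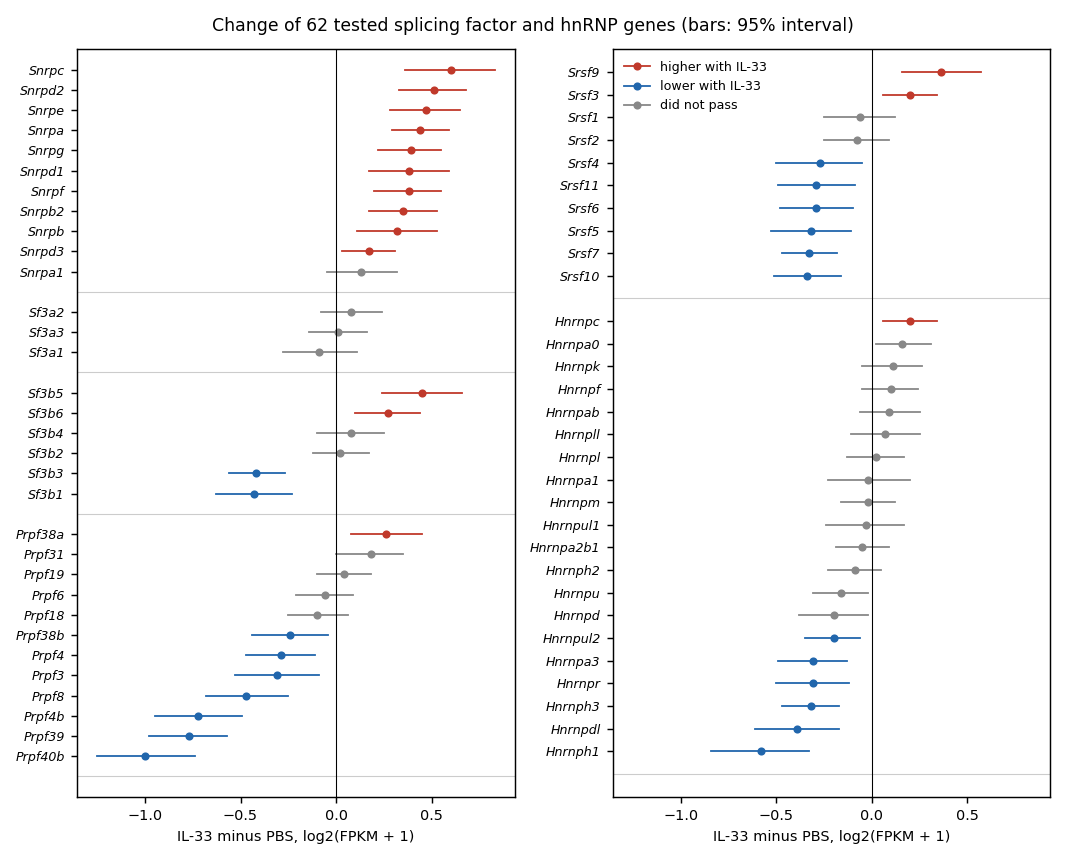
Change of 62 of the 63 tested genes on the log2(FPKM + 1) scale, IL-33 minus PBS, with its 95% interval (n = 3 libraries each), grouped by prefix and coloured by the test. With the values as deposited, 10 of 11 Snrp genes lay to the right and passed and 7 of the 12 Prpf genes drawn lay to the left and passed; with equal totals none passed as higher.

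The promoters of the 3 Snrp genes with the largest rise and of the 3 Prpf genes with the largest fall are shown first, because these families moved apart. Each is the 250 bases before the gene's start in RefSeq (build GRCm38.p6), read 5′ to 3′ on the gene's strand. Capitals mark any match, on either strand, to 5 promoter motifs: the ETS core CCGGAAG, the palindromic NRF1 site, the CCAAT box, the GC box GGGCGG and the TATA box TATAAA, none of which contains another.
Snrpc (chr17:27839837-27840086, plus strand): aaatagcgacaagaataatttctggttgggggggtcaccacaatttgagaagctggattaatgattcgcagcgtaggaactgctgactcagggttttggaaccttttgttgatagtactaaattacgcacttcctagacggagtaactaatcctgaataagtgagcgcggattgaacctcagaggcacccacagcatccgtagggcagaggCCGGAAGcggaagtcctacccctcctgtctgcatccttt
Snrpd2 (chr7:19149588-19149837, plus strand): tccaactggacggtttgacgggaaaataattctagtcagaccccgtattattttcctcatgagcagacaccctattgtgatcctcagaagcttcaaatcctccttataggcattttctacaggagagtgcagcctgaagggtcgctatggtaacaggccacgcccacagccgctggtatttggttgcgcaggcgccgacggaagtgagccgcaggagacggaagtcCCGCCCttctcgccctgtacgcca
Snrpe (chr1:133610281-133610530, minus strand): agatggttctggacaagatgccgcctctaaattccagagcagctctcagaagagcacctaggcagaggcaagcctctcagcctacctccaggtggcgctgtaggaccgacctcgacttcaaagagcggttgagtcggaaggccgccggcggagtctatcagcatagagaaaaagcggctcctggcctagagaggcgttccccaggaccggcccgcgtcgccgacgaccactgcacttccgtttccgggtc
Prpf40b (chr15:99294991-99295240, plus strand): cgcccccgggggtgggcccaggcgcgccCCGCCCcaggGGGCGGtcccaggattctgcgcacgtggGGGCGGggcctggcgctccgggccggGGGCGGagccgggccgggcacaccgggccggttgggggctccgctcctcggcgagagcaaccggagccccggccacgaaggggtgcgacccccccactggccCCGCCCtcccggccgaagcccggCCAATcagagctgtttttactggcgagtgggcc
Prpf39 (chr12:65036084-65036333, plus strand): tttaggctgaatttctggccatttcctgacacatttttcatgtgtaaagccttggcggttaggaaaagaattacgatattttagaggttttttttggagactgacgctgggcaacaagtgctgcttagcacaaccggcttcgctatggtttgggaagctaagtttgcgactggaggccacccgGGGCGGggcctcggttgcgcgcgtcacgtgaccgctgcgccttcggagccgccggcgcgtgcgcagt
Prpf4b (chr13:34875279-34875528, plus strand): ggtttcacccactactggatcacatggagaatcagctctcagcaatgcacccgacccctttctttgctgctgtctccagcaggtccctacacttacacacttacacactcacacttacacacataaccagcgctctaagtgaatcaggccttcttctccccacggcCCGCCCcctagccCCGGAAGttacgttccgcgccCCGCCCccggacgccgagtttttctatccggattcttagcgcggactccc

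The ETS core was found in the windows of Snrpc and Prpf4b, 1 from each direction of change. Prpf40b had 5 GC boxes and 1 CCAAT box, Prpf4b had 2 GC boxes, Snrpd2 and Prpf39 had 1 each, and Snrpe held no match. The Snrpc window lies inside the GENCODE span of the gene, and the other 5 overlap theirs in part, because the annotations place the first base differently. A promoter was listed for 55 of the tested members, and 30.9% of these held the ETS core, against 14.8% of the promoters of tested genes and 7.07% of the 27025 promoters of all genes. Among the members the core stood in 30.8% of promoters of genes called higher and in 30.0% of those called lower. The GC box stood in 53.8% of promoters of genes called higher and 80% of those called lower, against 59.0% of tested genes. The CCAAT box stood in 47.3% of members against 36.9% of tested genes, and the TATA box in 9.09% against 6.09%. The NRF1 site was in none of the 55 and in 1.74% of the promoters of tested genes. These shares describe letters in a window and are not evidence of binding.

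The Sm proteins form a ring around the RNA of each of the U1, U2, U4 and U5 snRNPs. All 7 tested Sm ring genes rose with the values as deposited, by 0.17 to 0.51 with a median of 0.38, and none passed as higher with equal totals or quantile normalization. In bulk libraries a change in the mix of cells and a change in RNA per cell cannot be told apart, here and below. Snrpd2 (chr7:19149722-19153542, mm10) had 214, 213 and 189 FPKM in the IL-33 libraries, against 141, 139 and 152 FPKM in the PBS libraries. The groups did not overlap, and the means of 205 ± 13.9 and 144 ± 6.88 FPKM (SD, n = 3 each) gave a change of 0.51 (SE 0.07, limma adjusted p = 0.00177), the smallest p among the Snrp genes.

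Snrpe (chr1:133603871-133610291) had 320, 307 and 292 FPKM with IL-33, against 202, 235 and 229 FPKM with PBS. Every IL-33 library was above every PBS library, with a change of 0.47 (SE 0.08, limma adjusted p = 0.00298). Snrpg (chr6:86371304-86379328), the most abundant Snrp gene per length, had 481, 460 and 446 FPKM with IL-33 and 330, 369 and 363 FPKM with PBS. It changed by 0.39 (SE 0.07, limma adjusted p = 0.00395), but by -0.09 after quantile normalization, which turns its direction.

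The remaining ring genes were Snrpf, Snrpd1, Snrpb and Snrpd3. Snrpf (chr10:93583029-93589706) had 92.6, 94.3 and 81.0 FPKM with IL-33, against 69.0, 69.5 and 66.6 FPKM with PBS, a change of 0.38 (SE 0.08, limma adjusted p = 0.0053). The PBS values lay within 3 FPKM of each other and below all IL-33 values. Snrpd1 had 92.4, 88.1 and 83.8 FPKM with IL-33, against 60.7, 75.3 and 67.0 FPKM with PBS, a change of 0.38 (SE 0.09, limma adjusted p = 0.0104), again with no overlap. Snrpb rose by 0.32 (limma adjusted p = 0.0201) and Snrpd3 by 0.17 (limma adjusted p = 0.0426) with the values as deposited. With equal totals Snrpd3 turned to -0.16 and passed as lower (limma adjusted p = 0.0365) and Snrpb changed by -0.02, and with quantile normalization Snrpd3 changed by -0.17 and Snrpb by -0.08 without passing. Snrpd3 did not pass without any 1 of the 6 libraries (changes of 0.14 to 0.19), and Snrpb did not pass without IL-33 replicate 1, IL-33 replicate 2 or PBS replicate 2 (0.25 to 0.38 over all such fits). The ring's eighth gene, Snrpn, encodes the SmN protein known from neurons and averaged 0.173 ± 0.0179 FPKM with IL-33 and 0.202 ± 0.124 FPKM with PBS (SD, n = 3 each), too low to be tested.

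U1-A and U1-C are the proteins specific to the U1 snRNP that carry the Snrp prefix, and U1-C contacts the paired 5′ splice site. Both genes rose, and they were the only members that passed as higher after quantile normalization. Snrnp70, a U1 snRNP gene outside the prefix, went the other way, with a change of -0.29 (limma adjusted p = 0.0206). It also passed as lower with equal totals (-0.63) and quantile normalization (-0.61), but not without IL-33 replicate 1. Snrpc (chr17:27838150-27851968), which encodes U1-C, had the largest rise of all members, with 77.0, 78.6 and 74.3 FPKM in IL-33 libraries and 47.3, 45.7 and 59.1 FPKM in PBS libraries. The 3 IL-33 values were close together, PBS replicate 3 was the highest of its group, and the groups did not overlap. The means were 76.6 ± 2.19 FPKM with IL-33 and 50.7 ± 7.32 FPKM with PBS (SD, n = 3 each), a change of 0.60 (SE 0.10, limma adjusted p = 0.00291). Snrpa (chr7:27187005-27196271), which encodes U1-A, had 40.9, 41.7 and 39.8 FPKM with IL-33 and 30.3, 28.1 and 31.2 FPKM with PBS. It changed by 0.44 (SE 0.07, limma adjusted p = 0.00184), with every IL-33 library above every PBS library.

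**Figure D2:**
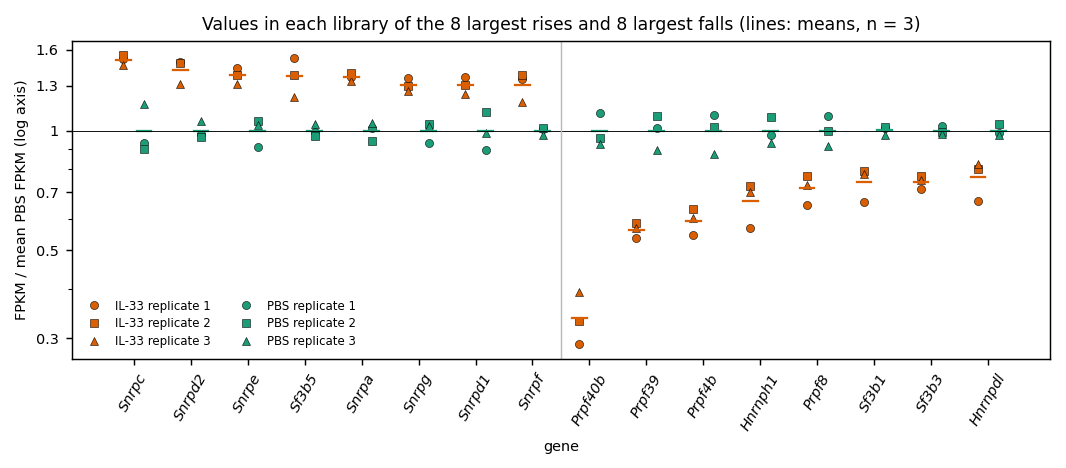
FPKM of each library divided by the gene's mean PBS FPKM (log axis) for the 8 members with the largest rise and the 8 with the largest fall; points are libraries, lines are means of 3. In each of the 16 genes the IL-33 libraries lay on one side of all PBS libraries, with Prpf40b farthest from 1; with equal totals no member passed as higher.

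Prpf39 and Prpf40b, relatives of yeast U1 snRNP components, moved the other way. Both fell, as they did with equal totals and with quantile normalization. Prpf40b (chr15:99295087-99317018), a relative of the yeast protein that bridges the ends of the intron, had 0.883, 1.01 and 1.20 FPKM with IL-33, against 3.39, 2.93 and 2.83 FPKM with PBS. Its mean with IL-33 was 0.337 times the mean with PBS, and its change of -1.0 (SE 0.11, limma adjusted p = 0.000654) was the largest fall of any member, although its level was the lowest of the 63. Because 1 FPKM was added before taking logs, that change understates the ratio of such low values. Prpf39 (chr12:65036333-65063386) had 11.5, 12.5 and 12.2 FPKM with IL-33, against 21.7, 23.3 and 19.1 FPKM with PBS, a change of -0.77 (SE 0.09, limma adjusted p = 0.000765). Its exons overlap those of Fkbp3 on the opposite strand (57.0 to 59.6 FPKM with IL-33 and 65.6 to 70.0 FPKM with PBS), and whether strand was used in the counting is not stated.

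The U2 snRNP is represented by Snrpa1 and Snrpb2, which bind U2 RNA, and by the SF3A and SF3B complexes, which hold it to the branch point. Of these 11 genes 3 rose, 2 fell and 6 did not pass, against 28.0% higher and 25.5% lower over all tested genes. Within SF3B the values as deposited gave falls of Sf3b1 and Sf3b3 and rises of Sf3b5 and Sf3b6. With equal totals 3 of the 6 genes passed, each of them lower, against 50.7% lower over all tested genes. Sf3b1 (chr1:54985169-55027481), the large scaffold subunit that closes around the branch-point helix, had 83.1, 100 and 98.0 FPKM with IL-33, against 128, 129 and 123 FPKM with PBS. It was the most abundant SF3B gene per length, and its change was -0.43 (SE 0.08, limma adjusted p = 0.00497) with no overlap between the groups. Sf3b3 (chr8:110810239-110846787) had 30.1, 32.6 and 31.7 FPKM with IL-33 and 43.4, 42.0 and 41.6 FPKM with PBS. Its change of -0.42 (SE 0.06, limma adjusted p = 0.00182) had the smallest p of the Sf3b genes. Its exons overlap Cog4 on the opposite strand, which had 13.6 to 16.7 FPKM with IL-33 and 14.0 to 15.4 FPKM with PBS.

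Sf3b5 (chr10:13005343-13009183), a very small SF3B subunit, had 90.0, 81.2 and 71.7 FPKM with IL-33, against 58.6, 57.0 and 61.1 FPKM with PBS. The IL-33 values were spread more widely but lay above the PBS values, and the change was 0.45 (SE 0.09, limma adjusted p = 0.00551). Sf3b6, whose product touches the branch-point adenosine, rose by 0.27 (limma adjusted p = 0.018) and did not pass without IL-33 replicate 1 (0.22 to 0.31 over the fits that leave 1 library out). Snrpb2 rose by 0.35 (limma adjusted p = 0.00778), and Snrpa1 changed by 0.13 (limma adjusted p = 0.193). No SF3A gene passed with the values as deposited, whereas with equal totals Sf3a1 (-0.41, limma adjusted p = 0.0117), Sf3a2 (-0.25, limma adjusted p = 0.0383) and Sf3a3 (-0.32, limma adjusted p = 0.00703) passed as lower. Sf3a2 had 29.6, 32.3 and 30.8 FPKM with IL-33 and 30.7, 27.9 and 29.3 FPKM with PBS, a change of 0.08 (95% interval -0.08 to 0.24, limma adjusted p = 0.373). Sf3a3 had 33.5, 33.9 and 35.9 FPKM with IL-33 and 32.5, 35.1 and 35.1 FPKM with PBS, a change of 0.01 (95% interval -0.14 to 0.16, limma adjusted p = 0.917). In both genes the groups overlapped. Sf3a1, Sf3b2 and Sf3b4 changed by -0.09, 0.02 and 0.08 and did not pass with the values as deposited. Sf3b2 passed as lower with equal totals (-0.31, limma adjusted p = 0.00999) and with quantile normalization (-0.26, limma adjusted p = 0.0194).

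The tri-snRNP and activation proteins among the Prpf genes were mostly lower: 5 of 8 fell, 1 rose and 2 did not pass. Of all tested genes 25.5% fell and 28.0% rose. Prpf4b (chr13:34875302-34906064), a kinase that phosphorylates tri-snRNP proteins, had 18.5, 21.5 and 20.4 FPKM with IL-33, against 37.2, 34.7 and 29.7 FPKM with PBS. Every IL-33 value was below every PBS value, and the change was -0.72 (SE 0.10, limma adjusted p = 0.00137). Prpf8 (chr11:75486816-75509449), the U5 protein at the catalytic centre, had 31.3, 37.0 and 35.2 FPKM with IL-33 and 52.3, 48.1 and 44.0 FPKM with PBS. It changed by -0.47 (SE 0.09, limma adjusted p = 0.00484), and the groups did not overlap. Prpf38b, the most abundant Prpf gene per length, had 58.4, 67.9 and 70.4 FPKM with IL-33 and 75.0, 81.7 and 75.3 FPKM with PBS. Its change of -0.24 (SE 0.09, limma adjusted p = 0.0494) was just inside the threshold and passed only in the fit that left out IL-33 replicate 3 among those without 1 library (-0.29 to -0.16).

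The U4/U6 genes Prpf3 and Prpf4 fell by 0.31 (limma adjusted p = 0.0264) and 0.29 (limma adjusted p = 0.0153). Prpf3 did not pass without IL-33 replicate 1 or PBS replicate 1 (changes of -0.36 to -0.24), and Prpf4 did not pass without PBS replicate 2 (-0.32 to -0.26). Prpf38a, a protein of the precatalytic spliceosome, was the 1 Prpf gene that rose, by 0.26 (limma adjusted p = 0.0256). It changed by -0.06 with equal totals, and did not pass without IL-33 replicate 1, IL-33 replicate 2, PBS replicate 1 or PBS replicate 2 (0.21 to 0.33). Prpf31, a tri-snRNP protein, changed by 0.18 and Prpf6, which bridges the tri-snRNP, by -0.06, and neither passed. Of the genes for later steps, Prpf18 changed by -0.10 and the ubiquitin ligase gene Prpf19 by 0.04, also without passing. With equal totals Prpf6 (-0.39), Prpf18 (-0.42) and Prpf19 (-0.28) passed as lower. Prpf19 passed as higher once the trend of change on transcript length was removed (0.17, limma adjusted p = 0.0419).

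Of the 10 tested SR protein genes 6 fell, 2 rose and 2 did not pass, against 25.5% lower and 28.0% higher over all tested genes. Their median change of -0.28 was also negative with equal totals and with quantile normalization. Srsf7, a shuttling SR protein that also takes part in mRNA export, had 75.2, 74.1 and 74.8 FPKM with IL-33, against 90.8, 99.0 and 92.1 FPKM with PBS. The IL-33 libraries were nearly identical and lay below all PBS libraries, and the change was -0.33 (SE 0.06, limma adjusted p = 0.00411), the smallest p of the family. Srsf5, the most abundant SR gene per length, had 366, 361 and 381 FPKM with IL-33 and 432, 524 and 436 FPKM with PBS. PBS replicate 2 was well above its group and the groups did not overlap. Its change was -0.32 (SE 0.09, limma adjusted p = 0.0189), and it did not pass without IL-33 replicate 1 or IL-33 replicate 2 (-0.37 to -0.23).

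Srsf10, which turns from activator to repressor when it loses its phosphates, fell by 0.34 (limma adjusted p = 0.00845) and passed without each library in turn. Srsf6, Srsf11 and Srsf4 fell by 0.29, 0.29 and 0.27 with limma adjusted p values of 0.02, 0.0231 and 0.0469. None of these 3 passed without IL-33 replicate 1, nor without PBS replicate 2. Srsf6 also did not pass without IL-33 replicate 2 or PBS replicate 1, nor Srsf4 without IL-33 replicate 3, PBS replicate 1 or PBS replicate 3. Their changes with 1 library left out ran from -0.37 to -0.21. Srsf9 and Srsf3 rose, by 0.36 (limma adjusted p = 0.0119) and 0.20 (limma adjusted p = 0.0259). Srsf3 changed by -0.14 with equal totals and with quantile normalization, and it passed only without PBS replicate 2 among the fits that leave 1 library out (0.18 to 0.23). Srsf1 and Srsf2, the best-studied enhancer-binding SR proteins, changed by -0.06 and -0.08 and did not pass with the values as deposited. Srsf2 passed as lower with equal totals (-0.41, limma adjusted p = 0.00118) and with quantile normalization (-0.41, limma adjusted p = 0.0019). It also did once the trend of change on transcript length was removed (-0.27, limma adjusted p = 0.0118). Srsf1 passed as lower with equal totals only (-0.39, limma adjusted p = 0.00726). Srsf12 averaged 0.048 ± 0.039 FPKM with IL-33 and 0.107 ± 0.0223 FPKM with PBS (SD, n = 3 each) and was not tested.

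Among the 20 hnRNP genes 6 fell, 1 rose and 13 did not pass, with a median change of -0.04. Of all tested genes 25.5% fell and 28.0% rose. The largest change was that of Hnrnph1 (chr11:50376990-50386528), which binds runs of G, with 91.4, 117 and 113 FPKM in IL-33 libraries and 157, 174 and 150 FPKM in PBS libraries. IL-33 replicate 1 was the lowest of the 6, the groups did not overlap, and the change was -0.58 (SE 0.11, limma adjusted p = 0.00395). Its relative Hnrnph3 fell by 0.32 (limma adjusted p = 0.00564), whereas Hnrnph2 changed by -0.09 and did not pass with the values as deposited. Hnrnph2 passed as lower with equal totals (-0.42) and with quantile normalization (-0.29). Hnrnpf, a further G-run binder and the most abundant hnRNP gene per length, had 341, 342 and 321 FPKM with IL-33 and 306, 312 and 319 FPKM with PBS. The groups did not overlap, yet the change of 0.10 (SE 0.06, 95% interval -0.05 to 0.24) did not pass (limma adjusted p = 0.209). Hnrnpf passed as lower with equal totals (-0.24, limma adjusted p = 0.00776) and with quantile normalization (-0.33, limma adjusted p = 0.00595).

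Hnrnpdl (chr5:100033577-100039664), a relative of Hnrnpd, had 63.3, 76.4 and 78.7 FPKM with IL-33, against 94.1, 99.0 and 92.9 FPKM with PBS. The change was -0.39 (SE 0.09, limma adjusted p = 0.0103) with no overlap. Hnrnpd itself changed by -0.20 and did not pass (limma adjusted p = 0.0624). It passed as lower with equal totals (-0.53), with quantile normalization (-0.31) and once the trend of change on transcript length was removed (-0.36). Hnrnpa3, Hnrnpr and Hnrnpul2 fell by 0.31, 0.31 and 0.20 with limma adjusted p values of 0.0114, 0.0154 and 0.0246. Hnrnpr did not pass without IL-33 replicate 1 or PBS replicate 2 (changes of -0.37 to -0.27), and Hnrnpul2 did not pass without IL-33 replicate 1, IL-33 replicate 2, PBS replicate 1 or PBS replicate 2 (-0.23 to -0.18). Hnrnpc, which covers runs of U, was the 1 hnRNP gene that rose, by 0.20 (limma adjusted p = 0.0278). It changed by -0.14 with equal totals and -0.08 with quantile normalization, and passed only without PBS replicate 2 among the fits that leave 1 library out (0.17 to 0.23).

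The abundant hnRNPs of the A and B type differed little with the values as deposited. Hnrnpa1, a general repressor of exon inclusion, averaged 107 ± 6.35 FPKM with IL-33 and 108 ± 11.9 FPKM with PBS, and Hnrnpa2b1 averaged 268 ± 5.40 and 278 ± 7.38 FPKM in IL-33 and PBS libraries (SD, n = 3 each). Neither gene passed, with changes of -0.02 (limma adjusted p = 0.897) and -0.05 (limma adjusted p = 0.489). Both passed as lower with equal totals (-0.35 for Hnrnpa1 and -0.39 for Hnrnpa2b1, limma adjusted p = 0.0155 and 0.00185) and with quantile normalization (-0.30 and -0.45, limma adjusted p = 0.0429 and 0.00577). Over the family, 18 of 20 genes passed as lower with equal totals and 16 with quantile normalization. Of all tested genes 50.7% and 25.0% passed as lower with these scalings. Hnrnpk, which binds runs of C, changed by 0.11 without passing, but passed as lower with equal totals (-0.23, limma adjusted p = 0.0149) and with quantile normalization (-0.30, limma adjusted p = 0.00942). The chromatin-associated Hnrnpu changed by -0.16 without passing. It passed as lower with equal totals (-0.50, limma adjusted p = 0.00113) and as higher once the trend of change on transcript length was removed (0.22, limma adjusted p = 0.0201). The other hnRNP genes that did not pass were Hnrnpa0, Hnrnpab, Hnrnpll, Hnrnpl, Hnrnpm and Hnrnpul1, with changes of -0.03 to 0.16. Hnrnpll is known for its control of the splicing of CD45 in T cells and had 13.1 ± 0.383 FPKM with IL-33 and 12.4 ± 0.988 FPKM with PBS (SD, n = 3 each).

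The groups did not overlap for 45 of the 63 tested members, against 63.6% of all tested genes (32.7% with IL-33 above PBS and 30.9% with IL-33 below PBS). Summed over the family, the Snrp genes had 1624 to 1782 FPKM in IL-33 libraries and 1238 to 1343 FPKM in PBS libraries. The Prpf genes summed to 262 to 288 FPKM with IL-33 and 323 to 342 FPKM with PBS, and the Srsf genes to 987 to 993 FPKM with IL-33 and 1068 to 1205 FPKM with PBS. With the values as deposited these 3 sums did not overlap between the groups. The Hnrnp sums did not overlap either but lay next to each other, at 2087 to 2157 FPKM with IL-33 and 2158 to 2260 FPKM with PBS. Total FPKM was also higher in the IL-33 libraries (778391 to 841884) than in the PBS libraries (614522 to 641412). The family sums were not scaled to it, so their separation depends on the scaling. IL-33 replicate 1 stood at the edge of its group: it was the lowest IL-33 library for 18 of the 22 members called lower and the highest for 13 of the 16 called higher. Among the PBS libraries, replicate 3 was the lowest for 17 of the 22. Without IL-33 replicate 1, 10 members passed as higher and 13 as lower, and without PBS replicate 2, 13 and 14. In all, 22 of the 38 calls held without each library in turn, 10 of them higher and 12 lower.

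The other genes of the splicing pathway were taken from 9 lists. Of 164 tested genes on them 34 rose, 52 fell and 78 did not pass, with a median change of -0.04, against 28.0% higher and 25.5% lower over all genes. The SR-related proteins and SR protein kinases were the list with the highest share of falls: 14 of 22 fell and 1, the kinase gene Clk3, rose (0.26). Clk3 changed by -0.07 with equal totals and by 0.09 with quantile normalization, without passing. Srrm2, a large scaffold of nuclear speckles, averaged 55.5 ± 12.5 FPKM with IL-33 and 111 ± 15.8 FPKM with PBS (SD, n = 3 each), a change of -1.01 (SE 0.18, limma adjusted p = 0.00335). Son, the other speckle scaffold, averaged 39.0 ± 4.98 FPKM with IL-33 and 68.5 ± 6.91 FPKM with PBS, a change of -0.80 (limma adjusted p = 0.00161; n = 3 each). Pnn, a speckle protein tied to the exon junction complex, changed by -0.66 (limma adjusted p = 0.00171). With equal totals 20 of the 22 passed as lower, against 50.7% of all tested genes. With quantile normalization 16 did, against 25.0%.

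The list of LSm proteins, relatives of the Sm proteins that sit on U6 RNA or act in mRNA decay and histone mRNA processing, had 4 rises and no fall among 11 genes. Over all genes 28.0% were higher and 25.5% lower. Naa38, which has an LSm domain but belongs to an N-terminal acetyltransferase, rose by 0.73 (limma adjusted p = 0.00185). Lsm10 rose by 0.46 (limma adjusted p = 0.00804) and Lsm4 by 0.44 (limma adjusted p = 0.00547). With equal totals only Naa38 passed as higher (0.39, limma adjusted p = 0.00827) and only Lsm3 as lower (-0.19, limma adjusted p = 0.039). The U1 and minor-spliceosome list split 3 and 4 among 10 genes. The rises were Snrnp25 (0.67), Snrnp35 (0.47) and Zmat5 (0.45), which are some of its proteins of the minor U11/U12 snRNP. The falls were Luc7l2 (-0.43), Luc7l (-0.35), Snrnp70 (-0.29) and Snrnp48 (-0.29). No gene of this list passed as higher with equal totals or once the trend of change on transcript length was removed. In the 12 genes of 3′ splice site and branch point recognition 3 rose and 4 fell, with the helicase gene Ddx46 (-0.57), the SF3B subunit gene Phf5a (0.38) and Zrsr2 (-0.35) changing most; Zrsr2 did not pass without PBS replicate 2 (-0.41 to -0.27). The U5 and tri-snRNP genes outside Prpf had 3 rises and 2 falls in 13, led by Ppih (0.41), the helicase gene Snrnp200 (-0.41) and Nhp2l1 (0.27, but -0.07 with equal totals and -0.03 with quantile normalization). The Prp19 complex and catalytic list had 5 rises and 5 falls in 28, led by Bud31 (0.54), Aqr (-0.49) and Cwc22 (-0.44).

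Of the RNA-binding regulators of alternative splicing outside Hnrnp, 6 of 36 rose and 14 fell. For this list and the 2 below, the shares over all tested genes were 28.0% higher and 25.5% lower. The cold-inducible Rbm3 averaged 644 ± 11.9 FPKM with IL-33 and 398 ± 45.7 FPKM with PBS (SD, n = 3 each), a change of 0.70 (SE 0.09, limma adjusted p = 0.00117). Ptbp2, a paralog of the polypyrimidine-tract binder PTBP1, changed by -0.78 (limma adjusted p = 0.00429) and Rbm25 by -0.60 (limma adjusted p = 0.00102). The list of exon junction complex and mRNA export genes had 7 rises and 4 falls in 16, with the export-complex genes Thoc6 (0.65) and Thoc2 (-0.63) on opposite sides and Upf3b at -0.46. On the list of the SMN complex, which loads the Sm ring onto snRNA, 2 of 16 genes rose and 5 fell. Gemin4 changed by -0.42 (limma adjusted p = 0.0168) and did not pass without IL-33 replicate 2 (-0.49 to -0.34), and Gemin5 by -0.34 (limma adjusted p = 0.0133). Phax, an exporter of snRNA, changed by 0.30 (limma adjusted p = 0.0484), by -0.03 with equal totals, and did not pass without IL-33 replicate 2, IL-33 replicate 3, PBS replicate 1 or PBS replicate 2 (0.25 to 0.40).

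**Figure D3:**
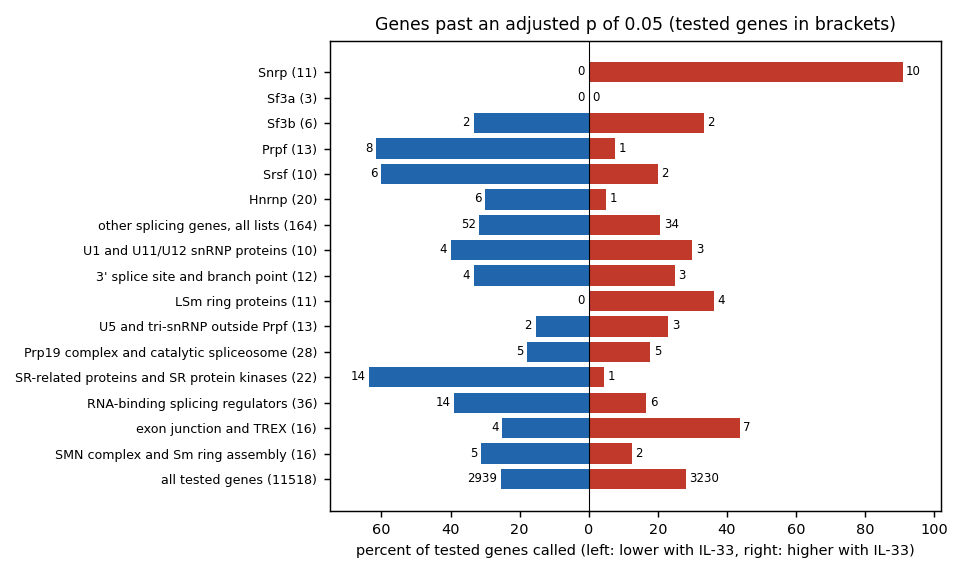
Percent of the tested genes of each prefix, of each list of other splicing genes and of all genes that passed as lower (left) or higher (right) with IL-33, with the number of genes at the bar ends and the number tested in brackets. The Snrp bar points right (10 of 11) and the bars of Prpf (8 of 13), Srsf (6 of 10) and the SR-related genes (14 of 22) point left; with equal totals none of the 63 tested members passed as higher.

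Change ran with transcript length, in the members and in the whole data. Over 8 classes of equal size by the median GENCODE transcript length, the median change of all tested genes went down from class to class, being 0.36 in the shortest (80 to 1109 bases), 0.05 in the fourth and -0.37 in the longest (4975 to 123179 bases). All 5 members in the shortest class rose and 5 of the 6 in the longest fell. Across the 63 members Pearson's r between change and log2 length was -0.611 (Spearman's rho -0.57), and across 11090 genes it was -0.313 (rho -0.439). Genes in the same libraries are not independent, so these values only describe them. The Snrp genes had a median length of 1161 bases and the Prpf genes of 3129 bases. Within prefixes r was -0.608 for the 6 Sf3b genes, -0.526 for the 13 Prpf genes, -0.373 for the 11 Snrp genes, -0.317 for the 10 Srsf genes and -0.0163 for the 20 Hnrnp genes.

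After a smooth trend of change on log2 length was removed in each library, a step chosen after seeing the data, 8 members passed as higher and 19 as lower, against 22.4% and 22.8% of the 11090 genes with a length. Of the 16 rises 6 remained, and of the 22 falls 16 remained. Snrpc (0.29, limma adjusted p = 0.0343), Snrpd2 (0.28, limma adjusted p = 0.00778), Snrpa (0.20, limma adjusted p = 0.0299) and Snrpb2 (0.23, limma adjusted p = 0.0352) still passed, whereas Snrpe (0.10), Snrpg (0.10), Snrpf (0.05) and Snrpd1 (0.01) did not. The Snrp median moved to 0.10 and 4 of 11 passed. Prpf8 (-0.10) and Sf3b1 (-0.13) no longer passed. Prpf40b (-0.97), Prpf39 (-0.64), Prpf4b (-0.33) and Hnrnph1 (-0.68) still passed, and 7 of the 10 Srsf genes passed as lower, with a median of -0.31. The SR-related list again gave 14 lower and 1 higher, but Srek1 (-0.16) and Srpk2 (-0.10) no longer passed as lower and Clk1 (-0.32) and Clk4 (-0.32) did. Sf3b5 changed by 0.56 after this step, but its GENCODE transcript of 3841 bases is far longer than its RefSeq gene span of 734 bases, so the length used for it is doubtful. Length is confounded with function among these genes, and what part of the changes either accounts for was not tested.

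**Figure D4:**
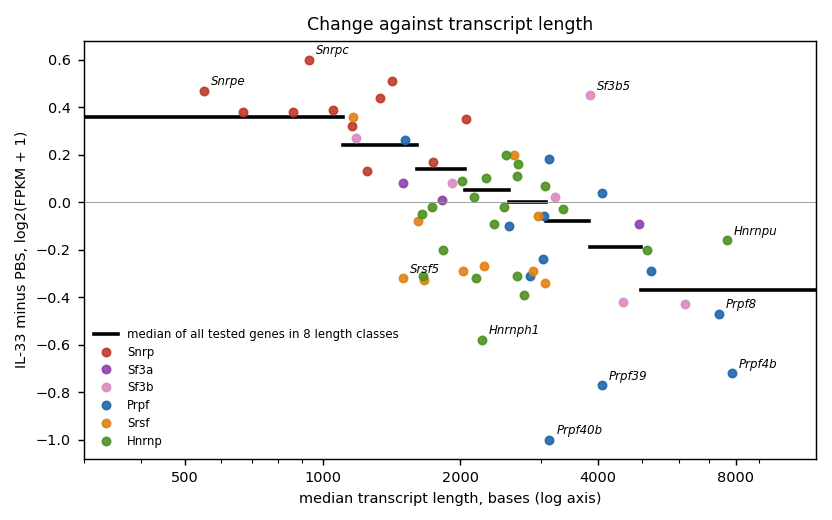
Change of 62 of the 63 tested members (IL-33 minus PBS, log2(FPKM + 1)) against its median transcript length in bases (log axis), coloured by prefix; black lines are the medians of all tested genes in 8 length classes. The medians step down from 0.36 to -0.37, most Snrp points sit on or above the line, and Prpf40b, Prpf39 and Hnrnph1 sit well below it.

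The scaling of the libraries decided the direction of many small changes. Total FPKM was 778391 to 841884 in IL-33 libraries and 614522 to 641412 in PBS libraries, and the members made up 0.668 to 0.726% of it with IL-33 and 0.843 to 0.878% with PBS. With totals made equal, 11.1% of all genes passed as higher and 50.7% as lower, and the member counts were 0 and 44. All 22 falls remained. On that scale the Snrp median was 0.04, against -0.29 for all genes, so the family lay above the median gene, whereas the Srsf median of -0.60 and the Prpf median of -0.58 lay below it and the Hnrnp median was -0.38. Quantile normalization gave 22.1% of all genes higher and 25.0% lower, with 2 members higher and 32 lower. The family medians were then 0.11 for Snrp, -0.29 for Prpf, -0.45 for Srsf and -0.30 for Hnrnp.

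**Figure D5:**
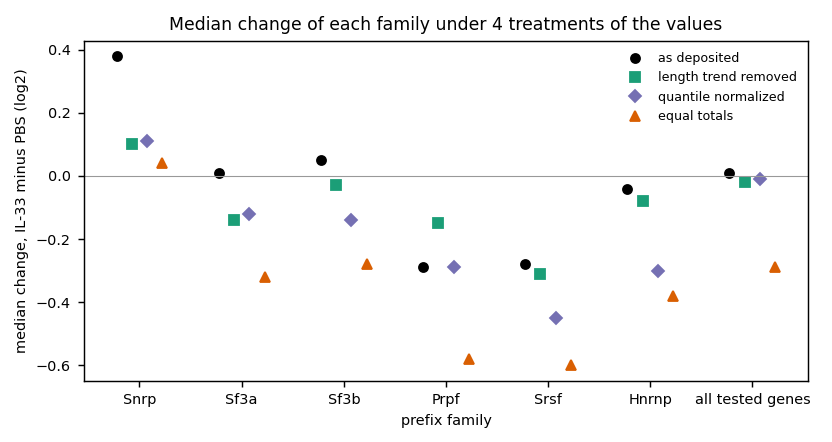
Median change (IL-33 minus PBS, log2(FPKM + 1)) of the tested genes of each prefix and of all tested genes, with the values as deposited, with the length trend removed, with quantile normalization and with equal totals. Snrp stayed above 0 and above the median gene with each of the 4, and Prpf, Srsf and Hnrnp stayed below both; Sf3a and Sf3b changed sign.

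Markers of several cell types differed in level between the groups. Itgax, which encodes CD11c, averaged 283 ± 15.1 FPKM with IL-33 and 241 ± 11.8 FPKM with PBS (SD, n = 3 each). Its change of 0.23 (limma adjusted p = 0.03) became -0.11 with equal totals and -0.17 with quantile normalization, without passing. The 16 dendritic cell markers, each high enough to be tested, split 7 higher and 6 lower, against 28.0% and 25.5% of all tested genes. Among the falls, Flt3 changed by -0.61 and Zbtb46 by -0.63 (limma adjusted p = 0.00319 and 0.000867). Both also passed as lower with equal totals and with quantile normalization. The dendritic cell markers summed to 31185 to 33842 FPKM with IL-33 and 21166 to 22659 FPKM with PBS. Total FPKM was also higher in the IL-33 libraries. The 13 listed T cell markers all fell (sums of 167 to 183 FPKM with IL-33 and 345 to 678 FPKM with PBS), as did the 10 NK cell markers (218 to 333 FPKM with IL-33 and 551 to 627 FPKM with PBS). Plasma cell markers rose in 9 of 10 (512 to 552 FPKM with IL-33 and 194 to 258 FPKM with PBS), eosinophil markers in 6 of 8 (870 to 1238 FPKM with IL-33 and 216 to 310 FPKM with PBS) and neutrophil markers in 7 of 10 tested, with 2 lower (1243 to 2494 FPKM with IL-33 and 526 to 847 FPKM with PBS). Among them Elane, Epx, Ear1 and Ear6 were listed at 0 in some libraries. B cell markers had 3 of 11 lower (407 to 545 FPKM with IL-33 and 380 to 899 FPKM with PBS), against 25.5% of all tested genes. Macrophage and monocyte markers had 4 of 12 higher, against 28.0% of all tested genes, and 1 lower (4015 to 5222 FPKM with IL-33 and 2598 to 4415 FPKM with PBS). Cell cycle genes rose in 10 of 16 (590 to 652 FPKM with IL-33 and 399 to 538 FPKM with PBS). Mki67, which is on this list, changed by -0.04 and did not pass (limma adjusted p = 0.884). The part of these shifts in the changes of the splicing genes was not tested.

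Near-identical gene copies can share reads with a gene. Among the 65 members 18 had at least 1 other gene with 95% or more identity over 80% or more of the coding sequence, 49 such copies in all, of which 1 (Gm6793, a copy of Hnrnpa3, which had 19) is listed in the tables. Snrpg, Hnrnpf and Srsf3 had 4 copies each, Snrpc had 3, and Snrpd2 and Snrpa had 2. Snrpe, Snrpf, Snrpd1, Snrpn, Sf3b4, Srsf5, Srsf10, Hnrnpa1, Hnrnph2, Hnrnpk and Hnrnpr had 1. The levels of these 18 genes are less certain than those of genes with none. Exons of 22 members overlap those of another gene. Sf3a2 overlaps Plekhj1 on the opposite strand, which had 47.3 to 54.4 FPKM with IL-33 and 34.3 to 37.1 FPKM with PBS. Hnrnpm overlaps March2 on the same strand, which had 42.2 to 54.7 FPKM with IL-33 and 30.1 to 32.0 FPKM with PBS.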

How the data were processed

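RNA of CD11c-sorted mouse spleen cells (3 IL-33 and 3 PBS libraries) was extracted on columns, treated with DNase and made into stranded poly(A) libraries, per the labels' protocols. The authors deposited FPKM values per gene symbol for each library; TopHat2 2.0.13, Bowtie2 2.2.3, SAMtools 0.1.19 and Cuffnorm 2.2.1 and the build mm10 are named in the submitters' processing notes. Which annotation, strand setting and scaling were used is not stated. Read counts are not given, so depth is unknown and no interval for counting error can be stated.

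From these values limma 3.58.1 (R 4.3.3, trended variance, two-sided) was fitted to log2(FPKM + 1) of the 11518 genes that reached 1 FPKM in 3 or more libraries, with Benjamini-Hochberg adjustment over all of them. Changes are IL-33 minus PBS on that scale and understate those of low genes. The fit was tested on simulated data. Lengths, loci and overlaps are from GENCODE M21, matched by symbol (23310 matched), promoters from RefSeq, copies from blastn 2.17.0. 1 member is counted but not reported here. The others are accounted for; full values go to the 8 largest rises and falls and to the most abundant and the smallest-p member of each prefix, and from each list the 3 largest passing changes are named. Clk3 and other genes outside this rule were named after their values were seen. Members and lists were chosen with earlier results of these data known. Alternatives covered pseudocounts, filters, 3 scalings, variance models, a replicate block, each library left out and, added later, removal of the length trend (loess, span 0.5).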

Additional observations from a re-analysis of the deposited data

How the results depend on the processing

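For the 63 tested members, pseudocounts of 0.5 and 0.1 and a filter of 5 FPKM kept each direction and call except that Prpf40b, below that filter, was not tested there. With equal totals 1280 of all genes passed as higher and 5840 as lower, the members gave 0 and 44 with a median of -0.37, and the other splicing genes gave 3 and 111; with quantile normalization the members gave 2 higher with a median of -0.26, and the other splicing genes 16 higher. With the length trend removed the members gave 8 higher with a median of -0.07, and the other splicing genes 14 higher. Without 1 library the members ranged over 10 to 14 higher and 13 to 22 lower, with a median of -0.05 to -0.02. The replicate numbers were not taken as pairs. Deviations of same-numbered libraries correlated at 0.075, -0.0544 and 0.089, and those of differently numbered libraries at -0.113 to 0.0556. With a replicate block 11 members passed as higher and 18 as lower. Directions turned in these genes, and in Clk3 with equal totals (-0.07). Equal totals gave Hnrnpa0 -0.17, Hnrnpab -0.25, Hnrnpc -0.14, Hnrnpf -0.24, Hnrnpk -0.23, Hnrnpl -0.32, Hnrnpll -0.24, Prpf19 -0.28, Prpf31 -0.14, Prpf38a -0.06, Sf3a2 -0.25, Sf3a3 -0.32, Sf3b2 -0.31, Sf3b4 -0.25, Sf3b6 -0.07, Snrpa1 -0.20, Snrpb -0.02, Snrpd3 -0.16, Srsf3 -0.14, Nhp2l1 -0.07 and Phax -0.03. Quantile normalization gave Hnrnpa0 -0.07, Hnrnpab -0.21, Hnrnpc -0.08, Hnrnpf -0.33, Hnrnpk -0.30, Hnrnpl -0.28, Sf3a2 -0.03, Sf3a3 -0.13, Sf3b2 -0.26, Sf3b4 -0.02, Snrpb -0.08, Snrpd3 -0.17, Snrpg -0.09, Srsf3 -0.14 and Nhp2l1 -0.03. Removing the length trend gave Hnrnpab -0.04, Hnrnpl -0.09, Hnrnpu 0.22, Hnrnpul1 0.02, Hnrnpul2 0.02, Sf3a1 0.12, Sf3a2 -0.14, Sf3a3 -0.16, Sf3b4 -0.07, Snrpa1 -0.12 and Snrpd3 -0.004. Library weights gave Hnrnpul1 0.01 and Sf3a3 -0.01, and median ratio scaling gave Sf3a3 -0.003. With 1 library left out Hnrnpa1 ranged over -0.07 to 0.07, Hnrnpul1 -0.09 to 0.04, Sf3b2 -0.01 to 0.05, Sf3a3 -0.03 to 0.03, Hnrnpl -0.0009 to 0.06 and Hnrnpm -0.05 to 0.01. The cause of these shifts was not tested.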
